A study of Mus musculus with 7 samples.

Results

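Cell cycle and replication genes were examined for PU.1 and MITF binding during osteoclast (OC) differentiation. The set held 40 genes out of 22367 protein-coding genes of the mouse annotation on build mm9. Members were listed by name as cyclins, cyclin-dependent kinases, their inhibitors, the E2F and RB factors, origin licensing and firing proteins, DNA synthesis enzymes and mitotic proteins, and a peak was given to a gene when its center lay within 20 kb of any annotated transcription start site (TSS) of that gene. All 40 genes were found in the annotation, and 40 of them had at least 1 PU.1 peak in at least 1 list.

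Chromatin came from bone marrow myeloid cells of C57BLACK6 mice aged 4-6 weeks, with 1 library per condition and 7 libraries in all. Myeloid precursors (MPs) were grown in CSF1 at 50 ng/ml for 3 days, the 36 h cells were then given RANKL at 100 ng/ml for 36 h, and OCs received it for 72 h. PU.1 and MITF were each immunoprecipitated with 5 µg of antibody at the 3 time points, and IgG was used on MPs only. Since no condition had a replicate, the spread between cultures or animals is unknown, and a p-value below compares the tags of a pair of libraries rather than the conditions.

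PU.1 is an ETS-family transcription factor that sets myeloid identity and binds GA-rich elements around a GGAA core. MITF, of the bHLH-zip family, recognises E-boxes and cooperates with PU.1 in the OC lineage. The cell cycle is driven by cyclins and their kinases, which phosphorylate RB proteins and release E2F factors onto the promoters of replication genes, while origins are licensed by CDC6, CDT1 and the MCM helicase. Proliferating precursors leave the cycle when they fuse into OCs.

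The sequences that carry the results are shown first, as the plus strand of mm9 from 5′ to 3′ over the deposited peak interval. Capitals mark GAGGAA on either strand (TTCCTC on the reverse), the core PU.1 element, and the E-boxes CACGTG and CATGTG on either strand. The first is the highest PU.1 peak of the 40 genes that lies outside a UTR. The next 3 had a MITF peak in all 3 MITF lists, and the last 3 were the highest PU.1 peaks outside a UTR within 1 kb of a member TSS.
Rb1, 8219 bp upstream (chr14:73733773-73733923): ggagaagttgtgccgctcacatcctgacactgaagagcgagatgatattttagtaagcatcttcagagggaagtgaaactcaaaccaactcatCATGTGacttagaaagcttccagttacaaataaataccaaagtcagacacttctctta
Rb1, 17037 bp downstream of an internal start (chr14:73622481-73622631): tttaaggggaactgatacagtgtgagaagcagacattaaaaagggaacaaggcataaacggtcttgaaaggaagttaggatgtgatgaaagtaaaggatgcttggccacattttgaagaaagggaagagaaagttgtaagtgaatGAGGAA
Top2a, 19068 bp upstream (chr11:98904496-98904646): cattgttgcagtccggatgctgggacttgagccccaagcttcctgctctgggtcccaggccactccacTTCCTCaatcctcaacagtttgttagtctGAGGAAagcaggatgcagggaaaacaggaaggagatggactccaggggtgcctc
Ccnd2, 12009 bp upstream (chr6:127113000-127113150): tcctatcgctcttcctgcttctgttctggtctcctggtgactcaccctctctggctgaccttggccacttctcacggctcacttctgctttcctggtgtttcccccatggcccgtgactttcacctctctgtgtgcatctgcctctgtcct
Cdkn1a, 273 bp upstream (chr17:29227576-29227726): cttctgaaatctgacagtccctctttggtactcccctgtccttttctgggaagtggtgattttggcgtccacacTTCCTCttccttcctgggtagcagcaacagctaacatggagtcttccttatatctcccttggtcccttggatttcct
Rb1, 754 bp downstream of an internal start, in an exon of Lpar6 (chr14:73638764-73638914): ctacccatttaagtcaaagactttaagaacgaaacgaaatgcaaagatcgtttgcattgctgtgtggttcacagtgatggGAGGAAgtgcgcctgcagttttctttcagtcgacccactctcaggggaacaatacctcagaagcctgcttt
Cdt1, 714 bp upstream (chr8:125091126-125091276): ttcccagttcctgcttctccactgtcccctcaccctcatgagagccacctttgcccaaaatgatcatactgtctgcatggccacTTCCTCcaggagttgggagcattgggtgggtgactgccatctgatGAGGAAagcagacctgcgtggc
Of these 7 intervals, 5 held a GAGGAA element, and the Ccnd2 interval held neither element. The interval upstream of Rb1 held CATGTG and no GAGGAA. This interval and that of Ccnd2 did hold the shorter GGAA core (TTCC on the reverse), which is not marked.

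The lists held 76243, 71941 and 77072 PU.1 peaks in MP, 36 h and OC, 5413, 3540 and 4443 MITF peaks, and 349 IgG peaks. Every Peak Score was a whole multiple of a library-specific step to within 0.0511 score units, so that tags (aligned reads in the peak) could be recovered, and 1 tag was worth 0.973 to 1.71 score units in the PU.1 and MITF libraries. The lowest peak held 6 to 7 tags for PU.1 and 8 to 10 for MITF. The MITF 36 h list stood apart, with a median of 24 tags per peak against 12 in MP and 10 in OC, and with widths of 150 to 1387 bp where the other MITF lists had 150 bp throughout. The PU.1 36 h peaks were also wider, with a median of 190 bp against 150 bp in MP and in OC. No member had an IgG peak within 20 kb, against 0.617% of all protein-coding genes, and no member peak overlapped an IgG peak. The lowest IgG score was 22.4, with 1 tag worth 3.20 score units, so absence from this list says little about lower member peaks. All 9 myeloid marker genes found in the annotation had a PU.1 peak within 1 kb of a TSS at each time point, while 2 of 12 markers of other cell types and 2, 2 and 1 of 8 OC markers did. Within 20 kb, all 8 OC markers and 11, 10 and 11 of the 12 markers of other cell types had one.

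PU.1 peaks lay near almost every cell cycle and replication gene, and this did not differ between the time points. Within 20 kb of a TSS, 39 of 40 members (97.5%) had a PU.1 peak in each of the 3 lists, against 73.3%, 73.1% and 73.5% of all protein-coding genes in MP, 36 h and OC. In all, 38 members had a peak in all 3 lists, a count not given for all protein-coding genes. The exceptions were Cdc45, a component of the replicative helicase, and Mcm6, a subunit of the MCM ring. Cdc45 had a single peak, in the 36 h list, 31 bp upstream of a TSS with 7 tags (95% Poisson interval 2.81 to 14.4), which was the lowest tag number in that list. Mcm6 had its highest peak at 6 tags in MP and 12 tags in OC and none at 36 h. Both genes thus held few tags wherever a peak was listed.

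Other gene groups also had high shares. Promoters (250 bp before to 50 bp after the 5′ end of the gene) with a CpG observed over expected ratio of at least 0.6 were found in 80% of members and 45.2% of protein-coding genes. Among the 10103 genes with such a promoter, 88.9%, 89.3% and 89.4% had a PU.1 peak within 20 kb. Among 100 other cell cycle genes the counts were 92, 97 and 93. Ribosomal protein genes gave 96.4%, 97.6% and 96.4%, and all 25 V-ATPase genes had a peak at each time point. The members thus lay above the genome-wide share and near the shares of the cell cycle, ribosomal protein and V-ATPase groups.

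**Figure D1:**
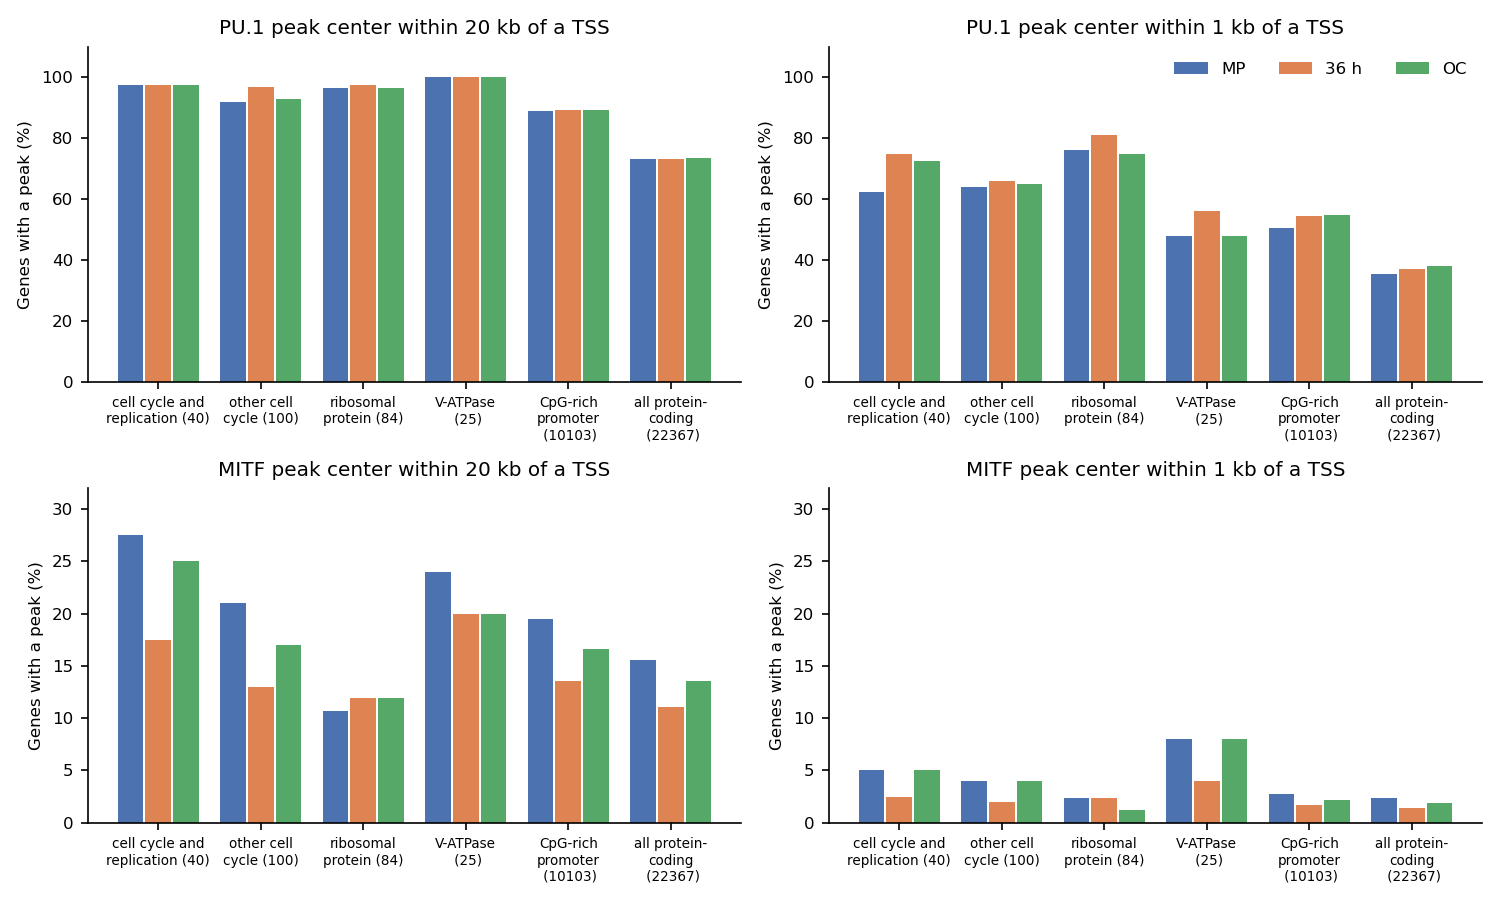
Percentage of genes (y axis) with a PU.1 peak (top) or MITF peak (bottom) whose center lay within 20 kb (left) or 1 kb (right) of a TSS, for 6 gene groups (number of genes in brackets) in the MP, 36 h and OC libraries, 1 library per bar. Cell cycle and replication genes stood at 97.5% for PU.1 within 20 kb at each time point against 73.3%, 73.1% and 73.5% of all protein-coding genes, and at 62.5%, 75% and 72.5% within 1 kb.

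At promoters the members stood further from the genome. A PU.1 peak within 1 kb of a TSS was present at 25 members in MP, 30 at 36 h and 29 in OC (62.5%, 75% and 72.5%), against 35.3%, 37.1% and 37.9% of all protein-coding genes and 50.5%, 54.4% and 54.7% of those with a CpG-rich promoter. Other cell cycle genes gave 64, 66 and 65 of 100, ribosomal protein genes 76.2%, 81.0% and 75%, and V-ATPase genes 48%, 56% and 48%. In MP the median score of member peaks was 17.1 within 1 kb and 26.5 beyond it, in OC 17.6 and 25.7, and at 36 h 22.2 and 23.7. Over all protein-coding genes the medians were 22.2 and 25.6 in MP, 22 and 25 in OC and 22.2 and 23.7 at 36 h, the last being those of the members. After peaks under 2 times the lowest score of a list were removed, 13, 16 and 16 members retained a peak within 1 kb, or 32.5%, 40% and 40%, against 21.7%, 22.9% and 23.6% of all protein-coding genes.

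A PU.1 peak within 1 kb was found in all 3 lists for 23 members, in 1 or 2 lists for 9 members and in no list for 8. Those without one were Ccnb1, Ccne2, Cdk6, Cdkn1b, E2f2, Rbl1, Plk1 and Aurkb, which all had PU.1 peaks farther out. The 9 that varied were Ccna2, Ccnb2, Ccnd2, Ccne1, Cdc45, Mcm2, Mcm6, Cdc20 and Aurka, whose promoter peaks held 7 to 13 tags, close to the lowest value of the lists. Of the 51 sites (overlapping peaks of the 6 lists merged) within 1 kb, 26 were in all 3 PU.1 lists, as were 111 of the 205 sites farther out. These counts over the 3 lists are not given for all protein-coding genes, so they are no comparison with the genome. Low tag numbers and presence in fewer lists went together, and their part in the count of 25 against 30 and 29 promoters was not tested.

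Members had a median of 4, 4 and 4.5 PU.1 peaks each, against 2 over all protein-coding genes, at a median distance of 6542, 6242 and 5979.5 bp from the TSS, against 7341, 7283 and 7243 bp. Other cell cycle genes had a median of 3, 3 and 3 peaks, at 6505, 6954.5 and 7003.5 bp. Ribosomal protein genes had 3, 3 and 4 peaks, at 6956.5, 6985.5 and 7050 bp. V-ATPase genes had 5, 4 and 5 peaks, at 6659.5, 7294 and 7224.5 bp. The highest PU.1 peak per member had a median score of 76.8 in MP, 63.6 at 36 h and 82.2 in OC, against 52.9, 50.3 and 54.3 over all protein-coding genes with a peak. The other cell cycle genes had 50.35, 47.3 and 48.5, below the genome. Ribosomal protein genes had 51.2, 51 and 55.8, and V-ATPase genes 76.8, 59.1 and 61.7. Over all PU.1 peaks within 20 kb, the median score was 23.9, 23.7 and 23.5 at members and 23.9, 23.7 and 25 near all protein-coding genes. The highest peak was thus taken from more peaks at members, while the median peak was no higher than near all genes. The highest score per member ranged from 10.2 (Mcm6) to 261 (E2f1) in MP. The 5 members with the highest scores were E2f1, Rb1, Cdkn1a, Mcm5 and Top2a. When a peak was counted only for the gene with the nearest TSS, 37 of 40 members kept a PU.1 peak in each list. The share of all protein-coding genes was then 62.5% in MP and 62.7% at 36 h. The median highest score of members was 46.1, 41.4 and 44.1 in MP, 36 h and OC under that rule. With a 10 kb window it was 40.9, 42.9 and 41.1. Genome medians were not computed under either setting, so these medians cannot be set against 52.9, 50.3 and 54.3.

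**Figure D2:**
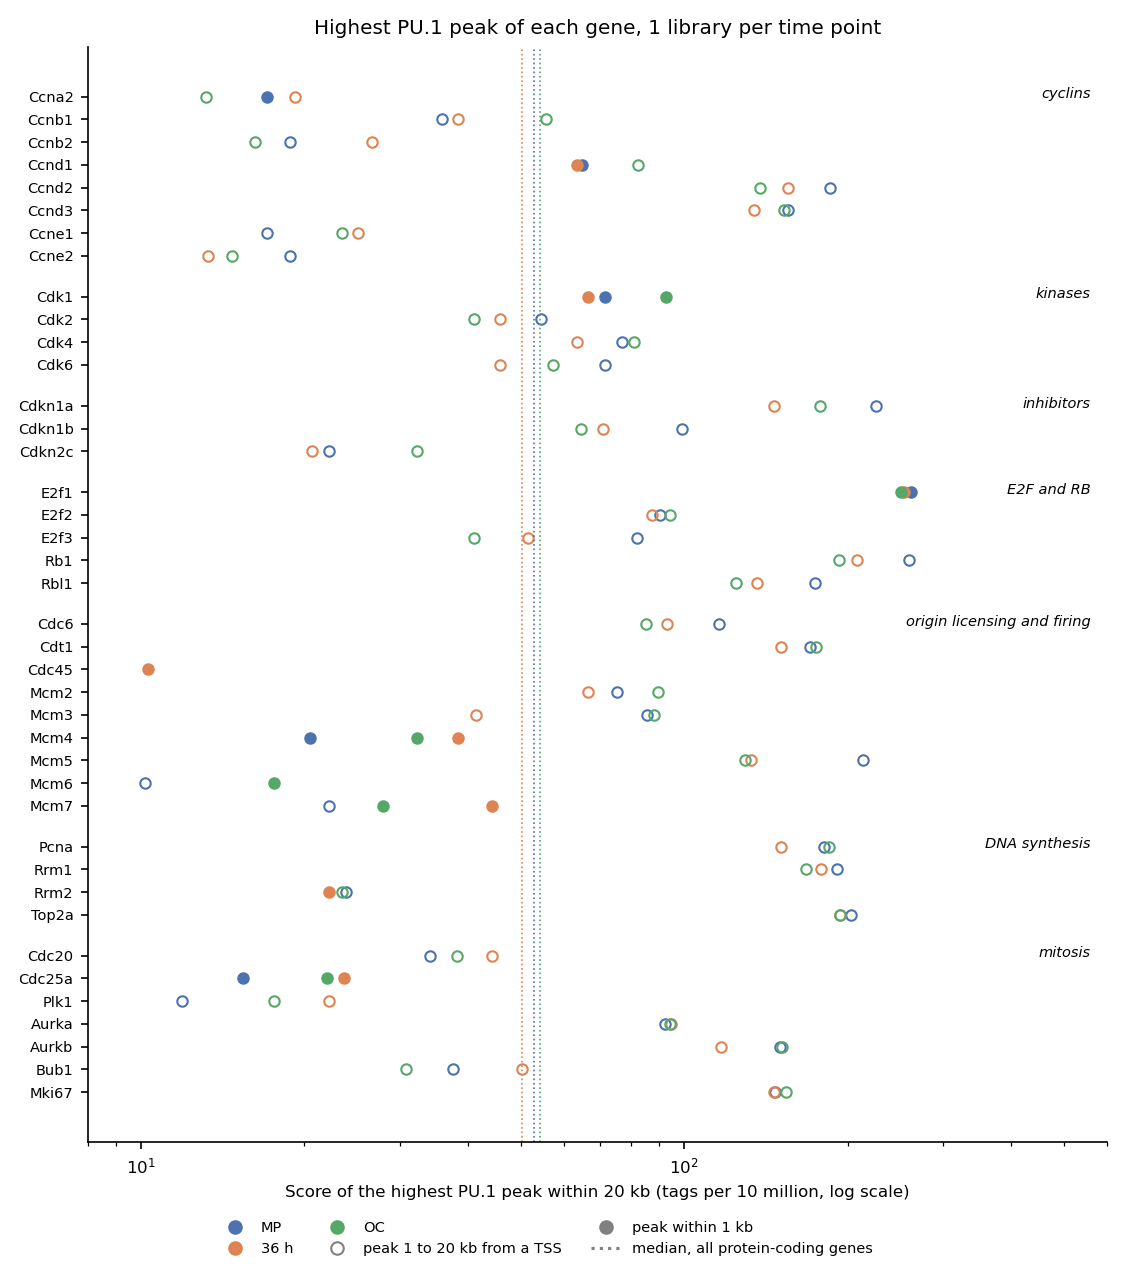
Score of the highest PU.1 peak within 20 kb of a TSS (x axis, tags per 10000000, log scale) for each of the 40 genes, grouped by role, in MP, 36 h and OC, 1 library per point. Filled points are peaks within 1 kb of a TSS, open points lie farther out, and dotted lines give the medians over all protein-coding genes with a peak (52.9, 50.3 and 54.3). E2f1 held the highest score in each list, and most of the high scores came from peaks beyond 1 kb.

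The 6 lists gave 256 sites at the 40 genes, of which 137 were in all 3 PU.1 lists, a share not given for all genes. Every site held a PU.1 peak. By the position of the center, 40 sites were in exons, 122 in introns and 94 between genes. No site was near more than 1 member, and 178 had a member as the gene with the nearest protein-coding TSS. For 224 sites the center lay within 20 kb of the 5′ end of the gene. The other sites were counted through internal starts, and 18 of them were at Rb1 and 4 at Ccnd3. Distances below are from the nearest annotated start, and the distance from the 5′ end is added where it differs much.

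Among the cyclins, the regulatory subunits that activate the kinases, high PU.1 scores were found at Ccnd2 and Ccnd3, of the D-type genes. D-type cyclins respond to growth factors in G1. At Ccnd2 the peak 12009 bp upstream held 109 tags in MP, 105 at 36 h and 94 in OC. Ccnd3 had 3 sites of 73 to 104 tags in all 3 lists, the highest with 91, 91 and 104 tags in an intron of Bysl, 2151 bp from the TSS of that gene and 104290 bp from the 5′ end of Ccnd3. At the Ccnd3 TSS the peak 11 bp upstream held 7, 11 and 14 tags. At Ccnd1 the peak 489 bp upstream held 38, 43 and 35 tags, and a site 15029 bp downstream held 37, 42 and 56. The highest scores of Ccnd1, 64.8, 63.6 and 82.2, did not exceed the medians over the members. None of these sites was called changed between the time points. Lower values were found at the S-phase and mitotic cyclins, with highest scores of 13.2 to 19.2 at Ccna2, 16.2 to 26.6 at Ccnb2, 17.1 to 25.1 at Ccne1 and 13.3 to 18.8 at Ccne2. Ccnb1 had scores of 35.8, 38.4 and 55.8.

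The kinases held intermediate peaks. Cdk1, the kinase of mitotic entry, had 42, 45 and 63 tags at a site 498 bp upstream of an internal start and 1610 bp inside the gene, while the site 137 bp upstream of its promoter held 10 and 16 tags in MP and 36 h and was not in the OC list. Cdk2, the partner of cyclins E and A, had 23, 26 and 27 tags at a site 142 bp upstream. Cdk4 had 11, 10 and 8 tags at 829 bp upstream, and a peak 23 bp inside a start with 12 tags was in the OC list only. Cdk6 had no promoter peak, and its intronic site 11712 bp downstream fell from 42 tags in MP to 27 at 36 h and 22 in OC without passing the test (exact binomial test, adjusted p = 0.280 for MP to OC).

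Of the inhibitors, Cdkn1a, which encodes p21, held 95, 97 and 102 PU.1 tags 273 bp upstream of its 5′ end. A site between genes, 13279 bp from an internal start and 20507 bp downstream of the 5′ end, held 132, 99 and 121 tags. At the promoter site the tags did not differ beyond counting error, with a log2 ratio of -0.09 (95% interval -0.51 to 0.33) from MP to OC. Cdkn1b, which encodes p27, held 58, 48 and 44 tags 12930 bp downstream and 23, 29 and 40 tags in an exon 2571 bp downstream. Cdkn2c had 9, 7 and 7 tags 125 bp upstream.

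The E2F and RB genes carried the strongest sites of the set. E2f1, an activator of replication genes, had 153, 172 and 171 PU.1 tags in an exon 238 bp downstream of a TSS (chr2:154394840-154394990), with 95% Poisson intervals of 130 to 179, 147 to 200 and 146 to 199 that overlapped throughout. This interval held 1 GAGGAA element and 1 E-box of the kinds searched. Rb1, the founding retinoblastoma protein, had 152, 95 and 117 tags 8219 bp upstream and 137, 141 and 131 tags at the intronic site shown above. The latter was 17037 bp from an internal start of a transcript not classed as protein-coding and 103073 bp from the 5′ end of Rb1, and the nearest protein-coding TSS was that of Lpar6 at 15142 bp. The promoter-near site of Rb1 with 71, 58 and 89 tags was likewise next to an internal start, 86790 bp inside the gene, in an exon of Lpar6, and the remaining site within 1 kb held 8 tags in OC only. Rbl1, which encodes p107, had 102, 92 and 85 tags 4981 bp from an internal start and 17132 bp from its 5′ end. E2f2 had 53, 59 and 64 tags in an intron 4795 bp from an internal start and 13207 bp from its 5′ end. At E2f3 the promoter site 939 bp upstream held 6, 9 and 7 tags.

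Among the origin licensing and firing genes, 6 of 9 had a promoter peak in MP and 8 of 9 at 36 h and in OC. Cdt1, which loads the MCM helicase, had 100, 102 and 119 tags 6533 bp upstream and 55, 56 and 27 tags 714 bp upstream. Each of these sites lay in an intron of another protein-coding gene. Cdc6, its partner in loading, had 22, 19 and 25 tags 230 bp upstream. Of the helicase subunits, Mcm3 had 13, 15 and 16 tags 73 bp upstream, Mcm5 6, 8 and 9 tags 4 bp downstream, and Mcm7 9, 30 and 19 tags 1 bp downstream of an internal start, 1157 bp from its 5′ end. Mcm4 had 12, 26 and 22 tags 506 bp upstream, at a site whose nearest protein-coding TSS was that of Prkdc. Mcm2 had 7 tags at 67 bp downstream at 36 h and again in OC and no promoter peak in MP. An intronic site of Mcm5, 10339 bp downstream, held 125, 90 and 88 tags, more than the distal Cdt1 site in MP and fewer at 36 h and in OC.

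All 4 DNA synthesis genes had a promoter peak in every list. Pcna, the sliding clamp, had 21, 27 and 25 tags 121 bp upstream and 16, 17 and 15 tags 176 bp downstream. Rrm1 and Rrm2 encode the subunits of ribonucleotide reductase. Rrm1 had 10, 10 and 12 tags 34 bp upstream, and Rrm2 6, 15 and 11 tags 535 bp downstream of an internal start, 1323 bp from its 5′ end. Top2a, a topoisomerase, had 9, 10 and 13 tags 263 bp upstream. The distal peaks were several times higher, with 106, 101 and 126 tags at Pcna, 12917 bp upstream in an intron of Cds2, 112, 121 and 114 tags at Rrm1, 15167 bp upstream in an intron of Stim1, and 119, 131 and 132 tags at Top2a, 19068 bp upstream and 340 bp from the TSS of Igfbp4. Except at Rrm1, each of these distal peaks was nearer to the other gene.

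The mitotic genes held promoter peaks at 3, 5 and 4 of 7 members. Mki67, a proliferation marker, had 24, 20 and 28 tags 525 bp downstream and 86, 99 and 105 tags 19659 bp upstream. Bub1, a checkpoint kinase, had 16, 23 and 15 tags 482 bp upstream. Cdc25a, the phosphatase that activates the kinases, had 9 tags in MP and 15 in OC 27 bp downstream, and 16 tags at 36 h in a separate peak 148 bp upstream. Aurkb, a kinase of chromosome segregation, had no promoter peak but 88, 79 and 103 tags 9646 bp upstream, at a site 1122 bp from the TSS of 1500010J02Rik. Plk1, a further mitotic kinase, had a highest score of 11.9, 22.2 and 17.6.

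**Figure D3:**
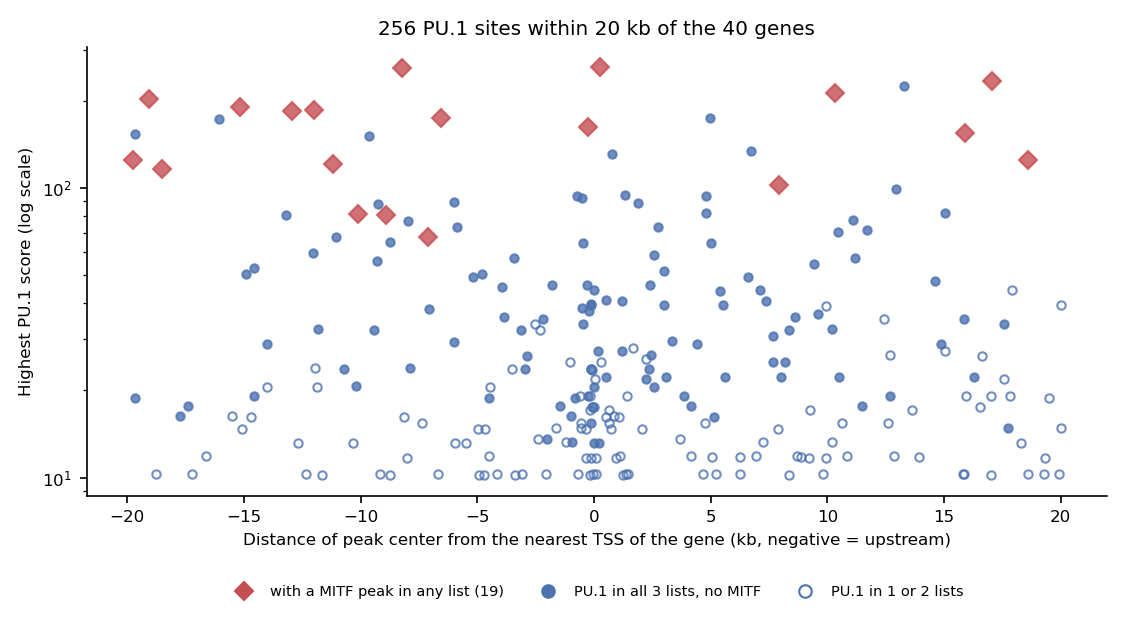
Highest PU.1 score of each of the 256 sites (y axis, log scale) against the distance of its center from the nearest TSS of the gene (x axis, kb, negative upstream). Diamonds are the 19 sites with a MITF peak in any list, filled circles the other sites in all 3 PU.1 lists, and open circles sites in 1 or 2 PU.1 lists. Sites close to the TSS were mostly low, and the diamonds lay in the upper part of the plot.

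The promoters and peaks were searched for motifs on both strands. The E2F elements TTTCCCGC and TTTGGCGC and TTTGGCGG, of which at least 1 was required, were present in 11 of 40 member promoters (27.5%) and in 2.56% of all protein-coding promoters of the same length. The 11 genes were Cdc25a, Cdc6, Cdk2, Cdt1, E2f1, E2f2, Mcm3, Mcm4, Mcm5, Mcm6 and Rb1. GAGGAA was present in 20% of member promoters and 28.1% of all promoters, and CACGTG or CATGTG in 15% and 19.1%.

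In windows of 151 bp around the PU.1 peak centers, GGAA was present in 96.97% to 100% of member peaks within 1 kb and in 99.1%, 99.0% and 99.3% of those of all genes. GAGGAA was present in 36.4%, 44.4% and 33.3% of the 33, 36 and 42 member peaks within 1 kb, against 44.7%, 44.6% and 45.1% over all protein-coding genes. Beyond 1 kb the shares were 55.3%, 59.1% and 55.1% against 55.3%, 56.1% and 56.4%. A GAGGAA element was thus less frequent in promoter peaks than in distal peaks for the members as for the genome. CACGTG or CATGTG was present in 18.2%, 22.2% and 19.05% of member peaks within 1 kb, against 10.6%, 10.2% and 10.2%. An E2F element was present in 3, 3 and 4 of the member promoter peaks, or 9.09%, 8.33% and 9.52%, against 1.22%, 1.30% and 1.28% over all genes.

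The question of whether PU.1 occupancy at these genes changed as precursors became OCs was addressed at peaks found in both of a pair of lists. Tags were compared by a two-sided exact binomial test against the median ratio of all matched peaks, with Benjamini-Hochberg adjustment over all of them, and a change was called where the adjusted p was under 0.05 and the ratio at least 2-fold. None of the 148 member sites shared by MP and 36 h was changed, against 0.932% of all matched peaks. The same held for 0 of 153 from 36 h to OC (0.0655% of all) and 0 of 152 from MP to OC (0.130% of all). At an unadjusted p under 0.05 there were 6, 9 and 11 member sites, beside 10.04%, 5.80% and 7.09% of all matched peaks. The median log2 ratio of the member sites was 0.01, -0.02 and 0.02. Tags at 36 h came from wider PU.1 peaks, and the part of this width in the comparisons with 36 h was not tested. Without a test, 6, 9 and 6 sites were at least 2-fold apart, or 4.05%, 5.88% and 3.95%, against 7.43%, 4.62% and 5.37% of all matched peaks.

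The sites nearest to a call were few. At Rb1, the site 8219 bp upstream went from 152 tags in MP to 95 at 36 h, a log2 ratio of -0.76 (95% interval -1.15 to -0.38) with an adjusted p of 0.0118 by the exact binomial test, which passed on p but stayed under 2-fold. In OC it held 117 tags (adjusted p = 0.195 against MP, exact binomial test). The 95% Poisson interval in MP, 128.8 to 178.2 tags, overlapped that in OC, 96.8 to 140.2, and not that at 36 h, 76.9 to 116.1.

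At Cdt1, the site 714 bp upstream held 55 and 56 tags in MP and 36 h and 27 in OC, with 95% Poisson intervals of 41.4 to 71.6, 42.3 to 72.7 and 17.8 to 39.3. The log2 ratio from MP to OC was -1.22 (95% interval -1.94 to -0.53), and the adjusted p was 0.0905 by the exact binomial test. At Mcm7, the site 1 bp downstream of an internal start went from 9 tags in MP to 30 at 36 h (log2 ratio 1.65, 95% interval 0.54 to 2.91, adjusted p = 0.0986, exact binomial test) and was at 19 in OC. The intronic Mcm5 site went from 125 to 90 and 88 tags (adjusted p = 0.181 and 0.116 against MP, exact binomial test). On simulated MP to OC tags the call recovered 18 of 200 changes of 2-fold, which is also the limit of the call, and 117 of 200 changes of 4-fold, including all 27 in peaks with a mean of at least 50 tags.

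**Figure D4:**
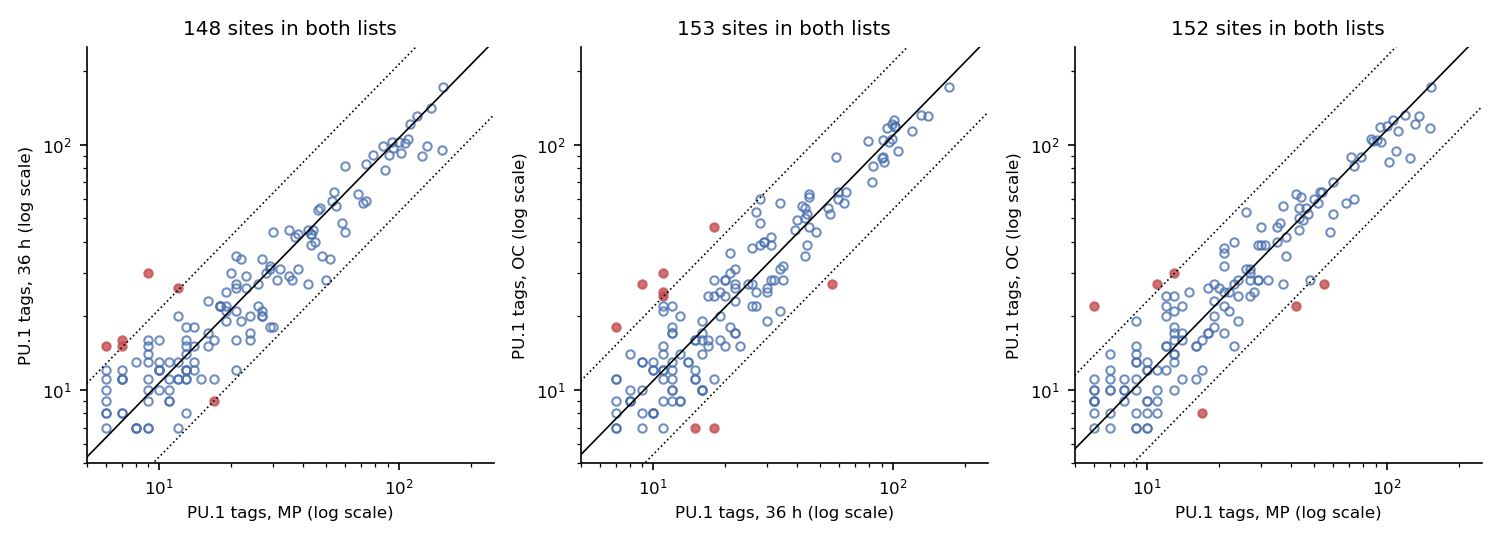
PU.1 tags per member site in pairs of libraries (log axes), MP against 36 h (148 sites), 36 h against OC (153) and MP against OC (152). The solid line is the median ratio of all matched peaks in the genome, the dotted lines lie 2-fold to either side, and filled points are the 6, 9 and 6 sites outside them, none of which was called changed.

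Presence of peaks gave a like picture. Of the 185 MP peaks of members, 151 (81.6%) overlapped an OC peak by at least 1 bp, and of the 200 OC peaks 152 (76.0%) overlapped an MP peak, against 80% and 78.5% of peaks near all protein-coding genes. Member peaks without a partner held a median of 7 tags in MP and 9 in OC, where those with one held 19 and 23.5.

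MITF peaks were fewer and lay mostly beyond 1 kb of a TSS, at the members and over all protein-coding genes. Of the pairs of a gene and a MITF peak, 11.8%, 12.5% and 20% lay within 1 kb, against 12.3%, 11.2% and 11.5%. The median distance was 12009, 12468.5 and 9964 bp, against 7580, 7705 and 8093 bp. The median highest MITF score was 12.5, 12.7 and 12.6, against 13.5, 25.3 and 12.6. Within 20 kb, 11 members had a MITF peak in MP, 7 at 36 h and 10 in OC (27.5%, 17.5% and 25%), against 15.6%, 11.0% and 13.6% of all protein-coding genes and 21, 13 and 17 of the 100 other cell cycle genes. Within 10 kb the counts were 4, 2 and 5 (10%, 5.00% and 12.5%), against 10.03%, 6.76% and 8.31%. With peaks of at least 2 times the lowest score and the 20 kb window they were 2, 3 and 3 (5.00%, 7.5% and 7.5%), against 4.21%, 7.16% and 3.43%. In MP and at 36 h the members thus stood near the background under either limit. Within 1 kb, 2, 1 and 2 members had a MITF peak (5.00%, 2.50% and 5.00%), against 2.39%, 1.44% and 1.85%. These were E2f1 in all 3 lists and Cdkn1a in MP and OC.

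There were 19 MITF sites at 12 members, all with a PU.1 peak in all 3 PU.1 lists. At each time point every member MITF peak overlapped a PU.1 peak, as did 98.5%, 93.9% and 95.1% of MITF peaks near all genes. At 9 of the 19 sites the nearest protein-coding TSS belonged to a gene that was not the member. In MP, 17 of 185 member PU.1 peaks (9.19%) overlapped a MITF peak, at 36 h 8 of 185 (4.32%) and in OC 10 of 200 (5.00%), against 7.04%, 4.66% and 5.39% near all genes. The overlapped PU.1 peaks held a median of 100, 113 and 103 tags and the others 13, 16 and 15, and near all genes the overlapped ones held 88, 95 and 95. Of member PU.1 peaks with a score of at least 100, 65.2%, 42.1% and 35% overlapped a MITF peak, against 55.4%, 44.2% and 45.5% near all genes. The overlapped peaks were the taller ones both at the members and near all genes.

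Of member MITF peaks in MP, 47.1% overlapped a 36 h peak and 47.1% an OC peak, against 46.5% and 52.8% near all genes. Of those at 36 h, 100% overlapped an MP peak and 50% an OC peak, against 70.2% and 66.2%. Of those in OC, 80% overlapped an MP peak and 40% a 36 h peak, against 65.3% and 54.2%. At the members, 4 sites were in all 3 MITF lists, a share not given over all genes. E2f1 had 25 MITF tags in MP, 50 at 36 h and 21 in OC, with 95% Poisson intervals of 16.2 to 36.9, 37.1 to 65.9 and 13.0 to 32.1. Set against the median ratio of the lists, its log2 ratio from MP to 36 h was 0.20 (95% interval -0.52 to 0.96). Ccnd2 had 14, 13 and 11 tags at the site 12009 bp upstream. Top2a had 11, 39 and 17 tags at the site near Igfbp4, where the 36 h peak was 485 bp wide. The intronic Rb1 site had 25, 91 and 18 tags, the 36 h peak being 260 bp wide.

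The Rb1 site was the only member site called changed for MITF. From MP to 36 h it was higher, with a log2 ratio of 1.07 (95% interval 0.42 to 1.77) and an adjusted p of 0.00841 by the exact binomial test, and from 36 h to OC it was lower, with -1.26 (95% interval -2.07 to -0.52) and an adjusted p of 0.00713 by the same exact test. That made 1 of 8 and 1 of 4 matched member sites, against 13.9% and 9.20% of all matched peaks, and from MP to OC it was 0 of 8 against 0.00% of all, with 0 of the 8 at an unadjusted p under 0.05. Without a test, 3 of 8, 1 of 4 and 0 of 8 member sites were at least 2-fold apart, against 27.4%, 24.4% and 3.87% of all matched peaks. At this site the wider 36 h interval moved with the higher tag number, and limiting pairs to peaks of at most 200 bp removed this site by construction. Over all matched peaks that limit lowered the share called to 4.16% from MP to 36 h and 0.323% from 36 h to OC. The part of the width in the difference was not tested. PU.1 at the same site was 137, 141 and 131 tags. When only starts of protein-coding transcripts were used, the site was no longer assigned to Rb1 and 0 member sites were called.

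The other 15 MITF sites were in 1 or 2 lists. The site upstream of Rb1 had 22 and 25 tags in MP and 36 h and was not in the OC list. Cdkn1a had 17 tags in MP and 11 in OC at its promoter and 9 in MP only at 8923 bp upstream. Rrm1 had 16 and 12 tags in MP and 36 h at 15167 bp upstream and 9 tags in OC at 7114 bp upstream. The remaining sites, with 9 to 12 tags each, were 2 at Ccnd3, 3 at Cdt1, 2 at Mcm5 and 1 each at Cdc6, Pcna and Aurkb. The lowest peaks of the MITF lists held 9, 10 and 8 tags, so a site missing from a list may lie just under its limit. One of the Mcm5 sites, 19745 bp upstream, was 3808 bp from the TSS of Hmox1.

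**Figure D5:**
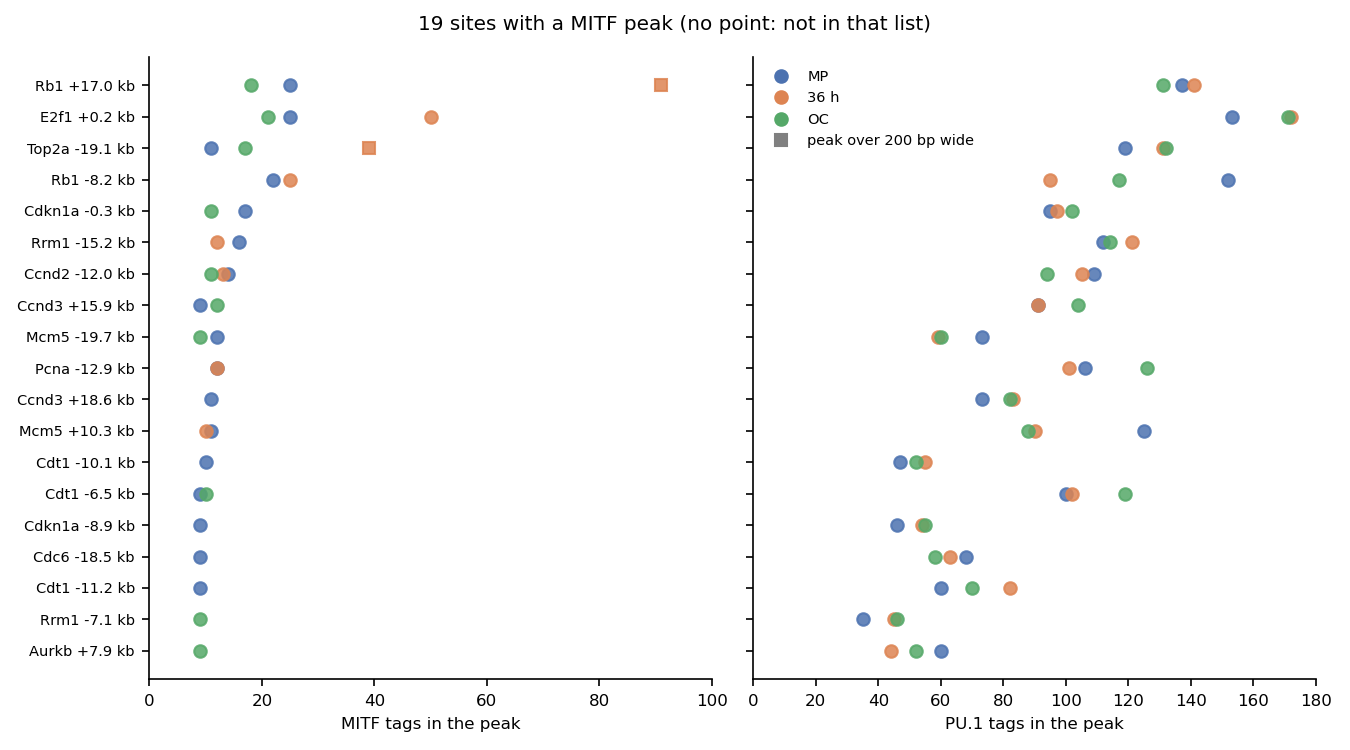
Tags per peak of MITF (left) and PU.1 (right) at the 19 member sites with a MITF peak (rows, named by gene and distance from the nearest TSS in kb), in MP, 36 h and OC, 1 library per point. A missing point means that the list had no peak there, and squares are peaks wider than 200 bp. The Rb1 site held 25, 91 and 18 MITF tags, while its PU.1 tags were 137, 141 and 131.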

How the data were processed

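ChIP-seq peak lists were analysed from 7 mouse libraries, 1 per condition. Per the labels and the study's methods, reads were base-called with CASAVA 1.8, aligned to mm9 with Bowtie2, and peaks were called with HOMER; versions of the latter 2 and peak-calling settings are not given in the sources used here. The authors deposited each peak's position, a Peak Score and the nearest RefSeq transcript. The deposited score was taken as tags per 10000000 tags, and tags were recovered from its steps (n = 1 library each). The scale implies 5862380 to 10273537 tags per PU.1 and MITF library and 3120459 for IgG, which limits precision, and intervals cover counting error only.

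TSSs came from GENCODE vM1 on mm9, and motifs from the mm9 sequence, with the 1-based inclusive interval of each deposited peak. Peaks were given to a gene by center within 20 kb (promoter: 1 kb). Matched peaks overlapped by at least 1 bp, 1 to 1 by nearest centers. Members and lists were chosen with earlier results of these data known. Sets of genes are described by counts and medians with no test. Sites named per library were those of members with a MITF peak, with a PU.1 peak within 1 kb in all lists, with the 5 highest scores, with a changed site or with a PU.1 peak in only some lists; other sites were named for illustration after their values were seen. Intervals are exact 95% Poisson intervals for tags and exact binomial intervals for ratios. The binomial test was tested on simulated MP to OC PU.1 tags at 60099 peaks, where it recovered 117 of 200 4-fold and 18 of 200 2-fold changes. Python 3.11.15, numpy 2.4.6, scipy 1.17.1 and matplotlib 3.10.9 were used. Alternatives covered score limits, IgG overlap, list length, TSS sets, nearest gene, windows, matching, scaling and fold limits. Backgrounds without chemosensory receptors or with CpG-rich promoters, the width limit and protein-coding starts for changed sites were added after seeing the data.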

Additional observations from a re-analysis of the deposited data

How the results depend on the processing

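No paired analysis was possible because each condition has 1 library, and for the same reason no replicate could be left out. The 35 results were recomputed under alternatives that gave 272 values, of which 53 moved beyond the limit set for them. That limit is wide for medians over members, and the cause was not tested where none is named. Whether the order of members and genome reversed was not part of this count. Values below are in the order MP, 36 h, OC. A count below without a share over all genes or all matched peaks beside it is not a comparison with the genome.

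With only scores of at least 2 times the lowest, 13, 16 and 16 members had a PU.1 peak within 1 kb, 2, 3 and 3 a MITF peak within 20 kb, and 1 in MP and 1 in OC a MITF peak within 1 kb. The median MITF distance in MP was then 8215 bp, the MITF overlap of PU.1 peaks 2.65% in MP and 2.61% in OC, the PU.1 peaks shared by MP and OC 89.4% and 88.7%, the median highest MITF scores 26, 48.7 and 20.6, and changed MITF sites from MP to 36 h 0. With lists of equal length the MP overlap was 5.68%.

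With peaks counted for the nearest gene only, median PU.1 distances were 4480, 3494 and 3893.5 bp, the median highest PU.1 scores were 46.1, 41.4 and 44.1, and 5 members had a MITF peak in OC. A 10 kb window gave PU.1 distances of 3448, 2959 and 3019 bp, a MITF distance of 6491 bp in MP, PU.1 scores of 40.9, 42.9 and 41.1, 4, 2 and 5 members with MITF, overlaps of 4.00% in MP and 1.61% at 36 h, and 0 changed MITF sites in either comparison with 36 h. A 50 kb window gave PU.1 scores of 146.7, 111.6 and 124.8 and PU.1 distances of 17389, 17385 and 17380 bp. MITF distances were then 19081, 21097.5 and 24480.5 bp, with 13 members with MITF at 36 h and 16 in OC. Changed sites from MP to 36 h were then 2 for PU.1 and 2 for MITF. The share of all protein-coding genes with a PU.1 peak in MP also rose, from 73.3% at 20 kb to 82.2% at 50 kb.

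A 1.5-fold limit gave 1 changed PU.1 site from MP to 36 h. With 2-fold and no test there were 6 from MP to 36 h, 9 from 36 h to OC and 6 from MP to OC for PU.1, and 3 for MITF from MP to 36 h. Scaling by implied library sizes gave 2 changed MITF sites from MP to 36 h and 2 from 36 h to OC, beside 32.7% and 37.3% of all matched peaks. Starts of protein-coding transcripts gave 0 and 0 in these comparisons, and peaks of at most 200 bp 0 and 0, both chosen after seeing the data.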
